A study of Acipenser schrenckii with 5 samples.

Results

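Brain miRNAs were compared by microarray with those of liver, spleen, muscle and heart in the Amur sturgeon, Acipenser schrenckii. All tissues came from 1 fish, aged 5 months, from a breeding centre, with no treatment stated. Each tissue was hybridized to 1 single-color (Cy3) µParaflo array, which carries short probes complementary to mature miRNAs, so the brain is 1 of 5 samples and the tissues were not replicated. The brain sample is labelled "Bain". All 663 experimental probes were used, each printed in 5 spots, and 48 of them were custom probes for sturgeon sequences, whereas the rest were taken from miRNAs of other fish. Names therefore follow the fish whose miRNA the probe was made for (dre for zebrafish, ola for medaka, ccr for carp, ipu for channel catfish, fru and tni for pufferfish, pol and hhi for flatfish).

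Signal is the normalized intensity of a probe in arbitrary units, given as the mean over its 5 spots with the SD over those spots, which is a technical error only. Detection asked that 50% or more of the spots of a probe exceeded the surrounding empty spots by more than 3 SDs of the empty spots with a pixel SD below 0.5 of the signal. Where a probe was not detected in a tissue, its level there was raised to the lowest detected Signal of the array where it lay below it, and a ratio against it is written as "at least". That lowest Signal was 58.2 in brain, 366 in liver, 56.1 in spleen, 28.0 in muscle and 49.6 in heart. The liver limit is the highest, and the empty spots of the liver array had an SD of 58.5, against 17.6 in brain and 4.9 to 13.1 in the other 3 arrays. A robust SD, which gives outlying spots little weight, was 13.2 in liver, 6.76 in brain and 4.26 to 6.02 in the others. The liver limit used here thus rests in part on outlying empty spots. Many probes differ by a base or by length only and share their target, so probes of a family are not independent measurements.

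The miRNA content of a vertebrate brain is known to differ from that of other organs. In vertebrates miR-9 is a miRNA of neural progenitors and neurons, miR-124 is the most typical miRNA of neurons, and miR-219 belongs to the oligodendrocytes that make myelin. A miRNA recognises its targets mainly through its seed, bases 2 to 8 from the 5′ end, so miRNAs with a common seed form a family. The seeds are in capitals in the sequences below, which are the targets of the probes as deposited.

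The first set shows the miRNAs with the highest ratio of brain to every other tissue. Both arms of the miR-9 hairpin were among them, and the names of the arms differ between fish, so the sequence identifies the arm.
dre-miR-9-5p: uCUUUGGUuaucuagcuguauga
ccr-miR-9-5p: uAAAGCUAgauaaccgaaagua
ola-miR-124-3p: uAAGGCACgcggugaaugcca
dre-miR-129-3p: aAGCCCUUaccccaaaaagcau
dre-miR-219: uGAUUGUCcaaacgcaauucuu
ola-miR-204: uUCCCUUUgucauccuaugc
ola-miR-128: uCACAGUGaaccggucucuu

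The second set shows members of the seed families that held the most brain-high probes, with a pair of custom probes that carry the let-7 seed.
ola-let-7a-5p: uGAGGUAGuagguuguauagu
custom probe A: aGAGGUAGcagguugcauaguu
custom probe B: aGAGGUAGuugguuguauaguu
ccr-miR-100: aACCCGUAgauccgaacuugu
ipu-miR-99b: aACCCGUAgauccgaucuuguga
ola-miR-125c: uCCCUGAGacccuaacuugugac
ola-miR-103: aGCAGCAUuguacagggcuau

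The third set shows the miRNAs that were low in brain and present in most other tissues, where the 3 members shown of the miR-200 family have seeds that are the same or differ at the third base of the seed.
ccr-miR-200a: uAACACUGucugguaacgaug
dre-miR-141: uAACACUGucugguaacgaugc
ola-miR-200b: uAAUACUGccugguaaugaug
fru-miR-184: uGGACGGAgaacugauaaggg
ola-miR-223: uGUCAGUUugucaaauaccc
pol-miR-144-3p: uACAGUAUagaugauguacuau

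In brain 370 of the 663 probes were detected, against 197 in liver, 333 in spleen, 431 in muscle and 345 in heart. Detection in at least 1 tissue was found for 477 probes, 170 were detected in all 5 tissues and 186 in none. Of the 170, 54 had their highest Signal in brain, against 16 in liver, 57 in spleen, 36 in muscle and 7 in heart. Brain Signal was the lowest of the 5 tissues for 40 of these 170 probes, against 47 for spleen, 41 for heart, 29 for muscle and 13 for liver. Over the probes detected in brain and the other tissue, the rank correlation of Signal across probes (Spearman's rho, a description over probes that are not independent replicates) was 0.47 with liver (176 probes), 0.48 with spleen (283), 0.65 with muscle (330) and 0.65 with heart (307).

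A probe was called brain-high when it was detected in brain with at least 2 times the level of the highest other tissue. Of 663 probes 75 were brain-high (11.3%), from 25 families and 27 seeds. A probe was called brain-low when it was detected in at least 3 of the 4 other tissues and its brain level was at least 2-fold below each tissue in which it was detected. By this rule 41 probes were brain-low (6.18%), from 18 families and 23 seeds. With quantile normalization 44 probes were brain-high, and without normalization between arrays 12 were brain-low. None of the 330 seeds on the array held both a brain-high and a brain-low probe, which says little, since probes with a common seed often share their target. For 66 of the 75 brain-high probes, every brain spot was above every spot of the other 4 tissues, and for 29 of the 41 brain-low probes every brain spot was below every spot of the others. The calls rest on the means of these same spots, so these counts are no separate support for them. The median GC content of the targets was 42.9% for brain-high and 42.9% for brain-low probes, against 45% for the 361 detected probes that were neither, and the median length was 22 bases in each of these groups. In a tissue lysate, fewer cells of a type and less of a miRNA per cell cannot be told apart.

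**Figure D1:**
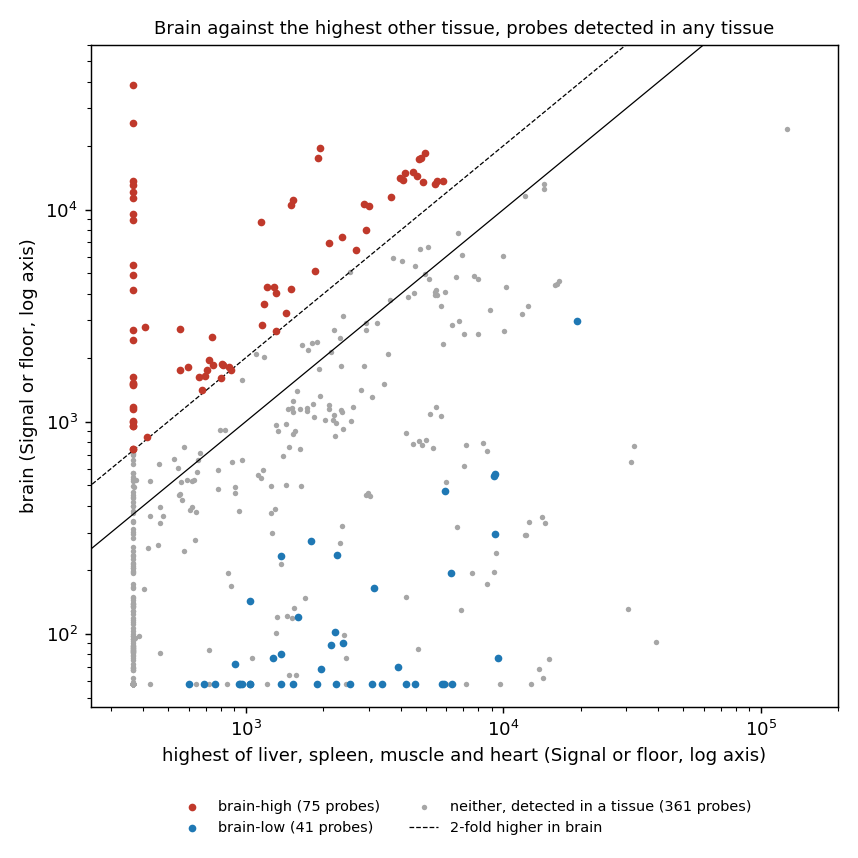
Brain Signal (vertical, log axis) against the highest of liver, spleen, muscle and heart (horizontal, log axis) for the 477 probes detected in a tissue, with undetected levels set at the lowest detected Signal of the array. The 75 brain-high probes lie on or above the dashed 2-fold line, the column of points at the left is at the liver limit of 366, and the 41 brain-low probes spread along the lower part.

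The brain markers miR-9, miR-124 and miR-219 were high in the sample labelled "Bain". All 6 probes of miR-9 were brain-high, against 11.3% over all probes. Of 7 probes of miR-124, 6 were detected in brain and 3 were brain-high, those for its main strand. Of 4 probes of miR-219, 2 were detected in brain and 1 was brain-high, dre-miR-219. For dre-miR-9-5p, Signal was 38583 ± 1330 in brain, against 150 ± 45.4 in liver, 72.7 ± 6.40 in spleen, 101 ± 2.04 in muscle and 312 ± 17.8 in heart (SD over 5 spots, 1 array per tissue). Brain and heart were the tissues in which it was detected, and the brain was at least 106-fold above all others and 124-fold above heart. The other arm, ccr-miR-9-5p, was detected in brain alone, with 11368 ± 348 in brain, against 110 ± 27.6 in liver, 86.3 ± 12.5 in spleen, 87.3 ± 12.3 in muscle and 16.3 ± 5.67 in heart, and was at least 31.1-fold higher in brain. Other probes for that arm detected in brain alone were ola-miR-9a-3p and dre-miR-9-3p. Signal of ola-miR-9a-3p was 8930 ± 169 in brain, against 142 ± 108 in liver, 76.8 ± 8.04 in spleen, 87.9 ± 10.6 in muscle and 11.5 ± 7.76 in heart. Signal of dre-miR-9-3p was 9553 ± 4713 in brain and 15.0 to 169 in the other 4 tissues. A further miR-9 probe, pol-miR-9b-3p, was detected in heart too, with brain 44.5-fold above heart. One low spot gave the wide error of dre-miR-9-3p in brain, where raw densities ran from 1200 to 11401. For ola-miR-124-3p, Signal was 13673 ± 738 in brain, against 106.8 ± 24.6 in liver, 82.7 ± 9.90 in spleen, 87.7 ± 7.52 in muscle and 29.6 ± 6.10 in heart. This probe was detected in brain alone and was at least 37.4-fold higher there, and dre-miR-124 and ipu-miR-124a, which differ from it by 1 base at the 3′ end, were at least 33.2-fold and 35.9-fold higher. Signal of dre-miR-124 was 12148 ± 607 in brain, against 209 ± 196 in liver, 83.0 ± 13.3 in spleen, 79.1 ± 4.69 in muscle and 26.4 ± 7.07 in heart, and that of ipu-miR-124a was 13111 ± 779 in brain, against 112 ± 16.6 in liver, 90.4 ± 5.22 in spleen, 94.5 ± 12.6 in muscle and 28.4 ± 4.90 in heart. For dre-miR-219, Signal was 4192 ± 263 in brain, against 98.8 ± 27.5 in liver, 92.9 ± 11.9 in spleen, 86.5 ± 14.7 in muscle and 20.6 ± 6.33 in heart. It was at least 11.5-fold higher in brain, and at least 45.1-fold higher when the liver array, which sets that limit, was left out.

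Neuronal miRNAs as a list were raised in brain by a wide range of ratios. Of 49 probes of the neuronal list (miR-9, miR-124, miR-128, miR-129, miR-132, miR-137, miR-138, miR-153, miR-212, miR-218 and miR-7), 41 were detected in a tissue, all of them also in brain, and 26 were brain-high. These include the 6 probes of miR-9 and 3 of miR-124 given above. Over all probes 75 of 663 (11.3%) were brain-high. The median contrast of the 41 list probes, log2 of brain minus the mean log2 of the other tissues (liver only where detected), was 3.32, against 0.13 over all probes detected. The arm of miR-129 in dre-miR-129-3p had a Signal of 5469 ± 294 in brain, against 91.9 ± 21.6 in liver, 82.8 ± 8.59 in spleen, 84.9 ± 7.97 in muscle and 120 ± 8.79 in heart. It was detected in brain and heart and was at least 15.0-fold higher in brain than in any other tissue. The opposite arm, dre-miR-129-5p, was detected in spleen, muscle and heart as well, and its brain level was 6.89-fold above muscle, the next tissue. For miR-128, known from postmitotic neurons, all 3 probes were brain-high by 7.06-fold to 7.61-fold over heart. Signal of ola-miR-128 was 11064 ± 532 in brain, against 1213 ± 78.7 in liver, 1060 ± 45.1 in spleen, 820 ± 279 in muscle and 1529 ± 104 in heart, so that this miRNA was detected everywhere and stood out in brain.

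miR-132 and miR-212 come from one gene in vertebrates, share a seed and are induced by neuronal activity in mammals. The 3 probes with that seed were brain-high, against 11.3% over all probes, and each was detected in brain alone. For dre-miR-212, Signal was 1621 ± 83.9 in brain, against 228 ± 365 in liver, 84.0 ± 8.77 in spleen, 79.6 ± 8.18 in muscle and 26.9 ± 8.21 in heart. The liver spots of this probe were spread more widely than their mean, and the brain was at least 4.43-fold higher than liver and at least 19.3-fold higher than the other 3 tissues. For ola-miR-132, Signal was 1526 ± 48.8 in brain, against 200 ± 216 in liver, 87.6 ± 14.2 in spleen, 77.9 ± 13.6 in muscle and 28.3 ± 5.90 in heart, at least 4.17-fold higher in brain. The third, dre-miR-132-3p, was at 952 ± 46.3 in brain, against 181 ± 202 in liver, 79.8 ± 21.2 in spleen, 61.7 ± 12.8 in muscle and 25.7 ± 3.17 in heart. The other arm of miR-132 was also brain-high by ipu-miR-132a, with 740 ± 39.1 in brain, against 58.9 ± 16.8 in liver, 62.0 ± 3.94 in spleen, 53.4 ± 6.02 in muscle and 25.8 ± 5.51 in heart, at least 2.02-fold.

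miR-153, which lies in genes of secretory vesicles, differed from these in its heart level. For dre-miR-153a, Signal was 4057 ± 315 in brain, against 180 ± 36.3 in liver (not detected), 100 ± 10.2 in spleen, 110 ± 18 in muscle and 1308 ± 203 in heart. The brain was 3.10-fold above heart, and heart was well above the other 3 tissues for this probe. The second brain-high probe, dre-miR-153c, was also detected in heart, with brain 4.76-fold above it. Its next tissue was liver, where it was not detected, and brain was at least 3.21-fold above it. miR-7, a miRNA of neurons and endocrine cells, had spleen as the next tissue. For fru-miR-7, Signal was 1744 ± 56.1 in brain, against 627 ± 82.5 in liver, 706 ± 29.9 in spleen, 273 ± 50.4 in muscle and 95.9 ± 11.8 in heart, 2.47-fold higher in brain than in spleen. The other detected miR-7 probes were 2.28-fold (dre-miR-7a), 2.10-fold (ccr-miR-7a) and 1.90-fold (ola-miR-7) above spleen, so that the last fell short of the limit.

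miR-137 was brain-high by 2 of its 4 probes, against 11.3% over all probes. Signal of ola-miR-137 was 1000 ± 67.1 in brain, against 111 ± 51.9 in liver, 71.5 ± 4.55 in spleen, 61.9 ± 10.4 in muscle and 38.2 ± 4.59 in heart, and it was detected in brain alone and at least 2.73-fold higher there. The miR-137 probes also show how far a probe with a near-identical target can depart. The target of ccr-miR-137 has 1 base more at its 3′ end than that of dre-miR-137:
ccr-miR-137: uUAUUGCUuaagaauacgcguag
dre-miR-137: uUAUUGCUuaagaauacgcgua
Signal of ccr-miR-137 was 466 ± 45.7 in brain, against 64.4 ± 24.2 in liver, 60.7 ± 6.31 in spleen, 53.5 ± 4.65 in muscle and 55.5 ± 9.11 in heart, detected in brain alone, whereas dre-miR-137 was at 58.7 ± 11.2 in brain and not detected. The brain spots of fru-miR-137, the second brain-high probe, were uneven, with 745 ± 355 in brain, against 85.6 ± 50.4 in liver, 91.6 ± 55.8 in spleen, 60.7 ± 19.9 in muscle and 35.5 ± 7.23 in heart. With plain background subtraction fru-miR-137 in brain was at least 0.9 of the liver limit, which settles no direction, since it was not detected in liver.

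miR-138, known from the mammalian brain, and miR-218, a miRNA of motor neurons in vertebrates, were highest in brain on every probe but were not called brain-high. All 3 probes of miR-138 and all 5 of miR-218 were detected in brain and not in liver, where the limit of detection left them below 2-fold. Signal of ccr-miR-218b was 703 ± 42.2 in brain, against 210 ± 69.3 in liver, 116 ± 10.9 in spleen, 132 ± 11.4 in muscle and 185 ± 15.6 in heart. The brain was at least 1.92-fold above liver and 3.79-fold above heart. Signal of dre-miR-138 was 551 ± 36.1 in brain, against 87.7 ± 24.4 in liver, 97.8 ± 13.4 in spleen, 57.7 ± 13.1 in muscle and 65.1 ± 12.03 in heart, at least 1.51-fold higher than liver and at least 5.63-fold higher than the other tissues. Without the liver array 97 probes were brain-high, and the 22 added probes included all 5 of miR-218, all 3 of miR-138 and both of miR-489.

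miRNAs known from glia and from the choroid plexus also had brain-high probes, whose share over all probes was 11.3%. miR-338, which like miR-219 is known from oligodendrocytes, was brain-high by 2 of 3 probes, 3.39-fold for dre-miR-338 and 2.28-fold for ola-miR-338-3p. The brain spots of these probes were uneven (2506 ± 1280 and 3261 ± 2427), with raw densities of 276 to 3254 in the 5 spots of dre-miR-338. In all, 9 of the 75 brain-high probes had a spot SD above 30% of their brain Signal. miR-204, known from the choroid plexus and the pigment epithelium of the eye, had the highest ratio among miRNAs that were also well detected elsewhere. Signal of ola-miR-204 was 19592 ± 1041 in brain, against 429 ± 52.1 in liver (not detected), 1213 ± 104 in spleen, 1951 ± 282 in muscle and 1074 ± 56.5 in heart. The brain was 10.04-fold above muscle, and dre-miR-204 gave 9.15-fold. miR-135 was brain-high by 4 of 6 probes, each at least 3.14-fold to 6.67-fold above the liver limit, and ola-miR-135b was at 2440 ± 123 in brain, against 140 ± 49.4 in liver, 91.0 ± 4.75 in spleen, 91.3 ± 10.9 in muscle and 37.6 ± 8.77 in heart.

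miR-34, a target of p53, and miR-449, a miRNA of ciliated cells, share a seed, and 2 of the 4 probes with it were brain-high, against 11.3% over all probes.
dre-miR-34a: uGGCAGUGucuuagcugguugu
hhi-miR-449: aGGCAGUGucuuguuagcugguug
Signal of dre-miR-34a was 2737 ± 95.6 in brain, against 558 ± 138 in liver (not detected), 274 ± 17.3 in spleen, 156 ± 12.7 in muscle and 416 ± 29.9 in heart. It was at least 4.90-fold higher in brain than in liver and 6.58-fold higher than in heart. Signal of hhi-miR-449 was 950 ± 104 in brain, against 142 ± 18.6 in liver (not detected), 129 ± 6.34 in spleen, 127 ± 10.6 in muscle and 132 ± 14.1 in heart, at least 2.60-fold higher in brain. The other 4 tissues lay close together for this probe.

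**Figure D2:**
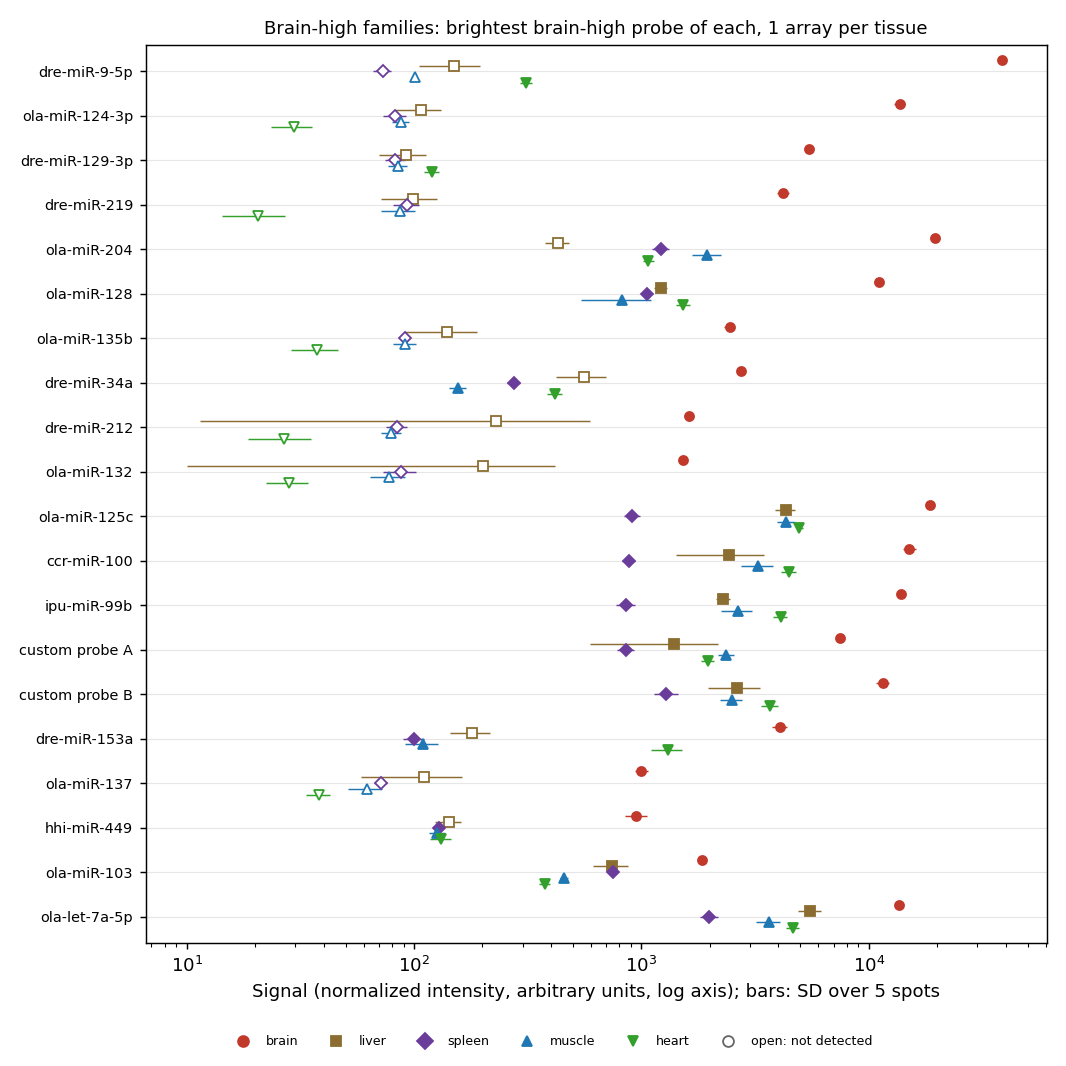
Signal (horizontal, log axis) in brain, liver, spleen, muscle and heart of the brightest brain-high probe of the 20 families with the highest ratio, with bars for the SD over 5 spots and open symbols where the probe was not detected. The plotted probes of miR-124, miR-219 and miR-135 were not detected outside brain, and that of miR-9 was detected outside brain in heart alone, whereas miR-128, miR-204, let-7, miR-99, miR-100 and miR-125 are detected in most tissues and highest in brain.

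The largest group of brain-high probes was the let-7 family, which controls developmental timing in animals. Of 19 probes with the let-7 seed, 17 were brain-high, by 2.33-fold to 3.54-fold over the next tissue, which was heart for 7, liver for 5, muscle for 4 and spleen for 1. Over all probes 11.3% were brain-high. Under all 8 alternatives of the processing given below, dre-let-7c, dre-let-7d, dre-let-7g, ola-let-7g and custom probe A remained brain-high. The others of the 17 did not. Signal of ola-let-7a-5p was 13599 ± 437 in brain, against 5520 ± 624 in liver, 1991 ± 176 in spleen, 3632 ± 444 in muscle and 4623 ± 321 in heart, 2.46-fold higher in brain than in liver. With quantile normalization the brain was 1.31-fold above heart, then the next tissue for this probe, which is short of the 2-fold limit. ccr-let-7i had a different order of tissues, with 4308 ± 274 in brain, against 1201 ± 456 in liver, 1283 ± 165 in spleen, 1101 ± 210 in muscle and 153 ± 16.2 in heart, so that heart was the lowest. The exceptions with this seed were a pair of let-7j probes, and of these dre-let-7j alone was detected in brain, since 18 of the 19 probes were. Signal of dre-let-7j was 3749 ± 174 in brain, against 2944 ± 1388 in liver, 3640 ± 300 in spleen, 2150 ± 176 in muscle and 2726 ± 151 in heart, where brain and spleen differed by less than the spread of the spots.

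The custom probes A and B lay within the range of the let-7 family. They differ from dre-let-7a by 3 and 2 base edits and carry the whole seed. For probe A, Signal was 7468 ± 330 in brain, against 1386 ± 791 in liver, 854 ± 74.9 in spleen, 2355 ± 188 in muscle and 1954 ± 125 in heart, 3.17-fold higher in brain than in muscle. For probe B, Signal was 11491 ± 744 in brain, against 2641 ± 671 in liver, 1288 ± 155 in spleen, 2492 ± 274 in muscle and 3667 ± 305 in heart, 3.13-fold higher in brain than in heart. Without normalization between arrays probe B was 1.97-fold higher in brain than in heart, just short of the 2-fold limit, whereas probe A kept 2.39-fold. Cross-hybridization between such close sequences was not tested. They were the 2 brain-high probes among the 48 custom probes.

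miR-99, miR-100 and miR-125 lie beside let-7 genes in vertebrate genomes, and miR-125 is the relative of lin-4 of Caenorhabditis elegans. Of 12 probes 10 were brain-high, against 11.3% over all probes, and heart was the next tissue for all 10, at 3.11-fold to 3.74-fold below brain. The other 2 probes were for different sequences (ola-miR-99 and ola-miR-125a-3p) and were not detected in brain. Signal of ola-miR-125c was 18521 ± 400 in brain, against 4306 ± 446 in liver, 909 ± 73.9 in spleen, 4326 ± 393 in muscle and 4951 ± 170 in heart. Signal of ccr-miR-100 was 15067 ± 974 in brain, against 2435 ± 1019 in liver, 879 ± 55.6 in spleen, 3270 ± 538 in muscle and 4445 ± 323 in heart. Signal of ipu-miR-99b was 13864 ± 549 in brain, against 2285 ± 155 in liver, 855 ± 78.2 in spleen, 2653 ± 422 in muscle and 4092 ± 295 in heart. With quantile normalization the brain was 1.93-fold above heart for ccr-miR-100 and 1.95-fold for ipu-miR-99b, just short of the 2-fold limit. In the main processing the order of tissues was alike in ola-miR-125c, ccr-miR-100 and ipu-miR-99b, with brain first, heart second and spleen lowest. The 10 brain-high probes were 14.9-fold to 21.6-fold higher in brain than in spleen.

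The 6 probes of miR-103 and miR-107, which share a seed and lie in introns of pantothenate kinase genes in vertebrates, were all brain-high by 2.00-fold to 2.47-fold. The share over all probes was 11.3%. Signal of ola-miR-103 was 1844 ± 56.0 in brain, against 744 ± 130 in liver, 747 ± 10.5 in spleen, 458 ± 17.6 in muscle and 376 ± 20.5 in heart. The calls in this family depended on the normalization. With arrays scaled to the median of probes detected in all tissues, ola-miR-103 was 1.86-fold above the next tissue. With quantile normalization dre-miR-107b was 1.72-fold above spleen. In the miR-29 family, which targets collagen genes, 2 of 8 probes were brain-high and the limit ran through the family. The probe just inside the limit was dre-miR-107b, at 2.00-fold above spleen, and the probe just outside was ccr-miR-29b, at 1.99-fold above heart with 5074 ± 186 in brain, against 747 ± 234 in liver, 1576 ± 77.9 in spleen, 684 ± 77.9 in muscle and 2548 ± 149 in heart. The brightest probe of the family, dre-miR-29b, had 5885 ± 235 in brain, against 1511 ± 558 in liver, 2879 ± 151.6 in spleen, 738 ± 61.1 in muscle and 3742 ± 242 in heart, 1.57-fold higher in brain than in heart, though without normalization between arrays brain was at 0.992 of heart. In the miR-190 family 1 of 4 probes was brain-high, with ipu-miR-190a at least 2.05-fold above liver.

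Of the 28 probes detected in brain alone, 14 were brain-high, against 11.3% over all probes. As no other tissue detected them, the call asked only whether brain Signal reached 2 times the liver limit of 366. The share is therefore no result about these miRNAs. The 14 were probes of miR-9, miR-124, miR-132, miR-137, miR-212, miR-219 and miR-135. By comparison 2 probes were detected in liver alone, 3 in spleen alone, 44 in muscle alone and none in heart alone. These counts also depend on the array, since the lowest detected Signal was 366 in liver, 58.2 in brain and 28.0 in muscle. Among the other 14 were both probes for the second strand of miR-124 and a pair of probes whose targets differ by 1 base, of which the second is a custom probe:
ola-miR-124-5p: cGUGUUCAcagcggaccuu
ipu-miR-219a: aGAAUUGUgccuggacaucugu
custom probe D: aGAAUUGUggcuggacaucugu
Signal of ola-miR-124-5p was 296 ± 11.8 in brain, against 47.1 ± 16.6 in liver, 44.9 ± 1.26 in spleen, 41.3 ± 10.1 in muscle and 26.9 ± 3.06 in heart. Signal of ipu-miR-219a was 372 ± 23.7 in brain, against 60.8 ± 17.3 in liver, 51.4 ± 15.9 in spleen, 54.1 ± 10.3 in muscle and 26.7 ± 9.40 in heart. Signal of custom probe D was 416 ± 32.0 in brain, against 73.0 ± 48.7 in liver, 47.7 ± 8.33 in spleen, 53.0 ± 13.7 in muscle and 25.3 ± 7.98 in heart. In these 3 probes the brain was 5.27-fold (at least) to 7.42-fold (at least) above the highest of spleen, muscle and heart, whereas against the liver limit no 2-fold difference could be seen. Of the others in this group, Signal of dre-miR-135b was 713 ± 73.9 in brain, against 117 ± 159 in liver, 56.3 ± 17.7 in spleen, 55.0 ± 12.8 in muscle and 30.6 ± 7.39 in heart. For ipu-miR-212, whose target has another seed than dre-miR-212, Signal was 631 ± 37.5 in brain, against 60.8 ± 17.7 in liver, 58.5 ± 8.66 in spleen, 54.5 ± 12.4 in muscle and 27.3 ± 8.45 in heart, and both probes were at least 1.73-fold above liver and at least 10.8-fold above the other tissues. For dre-miR-132-5p, Signal was 209 ± 28.0 in brain, against 52.4 ± 37.8 in liver, 38.8 ± 12.5 in spleen, 32.0 ± 5.43 in muscle and 19.4 ± 6.43 in heart. Signal of ipu-miR-138 in brain was 534, at least 5.17-fold above spleen, muscle and heart. Signal of pol-miR-124-5p was 140 ± 19.5 in brain, against 51.7 ± 51.8 in liver, 34.9 ± 10.6 in spleen, 37.2 ± 14.4 in muscle and 22 ± 2.31 in heart. The last 4, dre-miR-2187-3p (67.7 ± 7.17), ola-miR-301a-5p (75.5 ± 13.2) and a pair of custom probes (82.4 ± 9.25 and 83.4 ± 2.67), lay near the brain limit of 58.2.

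Among brain-low miRNAs, the miR-200 family had the largest fold of the lowest other tissue over brain and was undetected in brain. The family is known from epithelia, where it represses ZEB genes. None of the 12 probes of miR-200, miR-141 and miR-429 was detected in brain, whereas 11 were detected in liver, 10 in spleen, 12 in muscle and 12 in heart. Of the 12 probes 11 were brain-low, against 6.18% over all probes. The median contrast of the 12 probes was -3.75, against 0.13 over all probes detected. For ccr-miR-200a, brain Signal was 38.3 ± 3.66, against 4528 ± 487 in liver, 418 ± 26.5 in spleen, 3009 ± 404 in muscle and 869 ± 67.8 in heart. Every other tissue was higher, and spleen, the lowest of them, was at least 7.18-fold above brain, and liver at least 77.8-fold. For dre-miR-141, which has the same seed and 1 base more, brain Signal was 52.5 ± 34.9, against 4195 ± 587 in liver, 394 ± 26.9 in spleen, 2669 ± 130 in muscle and 855 ± 53.9 in heart. The brightest of the undetected probes in brain was ipu-miR-200b, with 90.7 ± 46.0 in brain (not detected), against 2394 ± 785 in liver, 277 ± 16.1 in spleen, 1511 ± 133 in muscle and 531 ± 34.9 in heart. With the other seed of the family, ola-miR-200b had 38.9 ± 4.85 in brain, against 2540 ± 390 in liver, 261 ± 19.1 in spleen, 1518 ± 164 in muscle and 554 ± 46.8 in heart. For ipu-miR-429b, brain Signal was 23.6 ± 8.62, against 513 ± 166 in liver, 116 ± 3.93 in spleen (not detected), 763 ± 94.2 in muscle and 176 ± 8.82 in heart, at least 3.02-fold higher in heart. All 10 probes that were detected in the 4 other tissues but not in brain were of this family.

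miR-184, known from the lens and cornea and from epithelia, was brain-low by 2 of 3 probes, against 6.18% over all probes. For fru-miR-184, brain Signal was 76.9 ± 11.5, against 360 ± 61.6 in liver (not detected), 599 ± 28.1 in spleen, 1274 ± 149 in muscle and 316 ± 20.5 in heart, and heart was 4.11-fold above brain. miR-375, of the pancreatic islet and the pituitary, was not detected in brain or heart. For ipu-miR-375, brain Signal was 43.2 ± 6.75, against 688 ± 63.5 in liver, 201 ± 10.7 in spleen, 515 ± 34.8 in muscle and 51.1 ± 35.5 in heart, so that spleen was at least 3.46-fold above brain. miR-31 was brain-low by all 3 probes, and without normalization between arrays muscle was at least 0.584 of brain for dre-miR-31, which settles no direction, since it was not detected in brain. This probe, just inside the limit, had 47.3 ± 5.69 in brain, against 276 ± 12.8 in liver (not detected), 1038 ± 44.0 in spleen, 121 ± 10.7 in muscle and 245 ± 18.3 in heart. The probe just outside was ola-miR-214, with 269 ± 143 in brain, against 1066 ± 140 in liver, 728 ± 52.0 in spleen, 2326 ± 175 in muscle and 514 ± 69.0 in heart, so that heart was 1.91-fold above brain. For dre-miR-222b, a miRNA of vessels and blood cells in mammals, brain Signal was 72.0 ± 17.6 (not detected), against 164 ± 39.1 in liver (not detected), 906 ± 75.6 in spleen, 205 ± 18.8 in muscle and 308 ± 8.13 in heart, so that muscle was at least 2.85-fold above brain. For ipu-miR-1388, whose family is known from fish, brain Signal was 52.9 ± 10.9, against 354 ± 26.3 in liver (not detected), 1900 ± 77.97 in spleen, 197 ± 22.6 in muscle and 295 ± 18.5 in heart, so that muscle was at least 3.38-fold above brain.

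**Figure D3:**
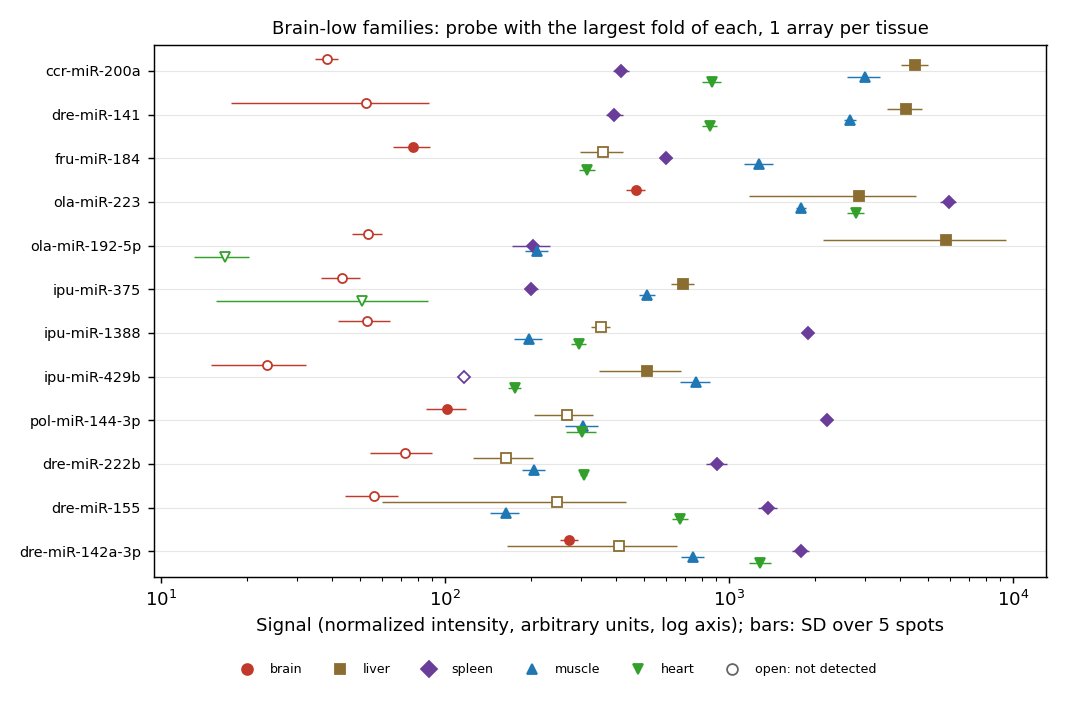
Signal (horizontal, log axis) in brain, liver, spleen, muscle and heart of the probe with the largest fold in 12 brain-low families, with bars for the SD over 5 spots and open symbols where the probe was not detected. Brain is to the left of every tissue in which the probe was detected, by 2.72-fold (dre-miR-142a-3p) to at least 7.18-fold (ccr-miR-200a), and spleen is to the right of the other tissues for 6 of the 12 (miR-223, miR-1388, miR-144, miR-222b, miR-155 and miR-142a).

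Blood cell miRNAs made up a further part of the brain-low probes. Of 18 probes of white cell miRNAs (miR-142, miR-146, miR-150, miR-155 and miR-223), 14 were detected in brain and 7 were brain-low, with a median contrast of -1.91. Over all probes 6.18% were brain-low. The brain-low probes were 3 of 8 for miR-142, 1 of 3 for miR-146, 1 of 2 for miR-155 and 2 of 3 for miR-223. The other probes of these families did not meet the rule. No probe of these families remained brain-low under all 8 alternatives of the processing. Without normalization between arrays muscle was 1.31-fold above brain for ola-miR-223 and 1.29-fold for dre-miR-142a-3p, short of the 2-fold limit. For ola-miR-223, a miRNA of myeloid cells, brain Signal was 469 ± 35.4, against 2871 ± 1698 in liver, 5929 ± 381 in spleen, 1792 ± 68.1 in muscle and 2799 ± 195 in heart. The lowest other tissue, muscle, was 3.82-fold above brain. For dre-miR-155, induced in activated lymphocytes, brain Signal was 56.3 ± 11.9 (not detected), against 247 ± 187 in liver (not detected), 1370 ± 107.2 in spleen, 163 ± 19.5 in muscle and 673 ± 42.1 in heart. For dre-miR-146b, a miRNA induced by NF-kB signalling in mammals, brain Signal was 294 ± 22.1, against 728 ± 286 in liver, 9318 ± 504 in spleen, 1051 ± 64.8 in muscle and 1974 ± 120 in heart. For dre-miR-142a-3p, of blood cells in general, brain Signal was 274 ± 19.2, against 410 ± 244 in liver (not detected), 1789 ± 126 in spleen, 745 ± 69.5 in muscle and 1287 ± 114 in heart, and muscle was 2.72-fold above brain. miR-150 had no brain-low probe, since muscle lay below brain for both of its probes. Signal of ola-miR-150 was 1091 ± 99.4 in brain, against 445 ± 122 in liver (not detected), 3360 ± 234 in spleen, 609 ± 64.8 in muscle and 5209 ± 162 in heart.

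Of the 6 probes of the red cell miRNAs miR-144 and miR-451, which are made from a common transcript, all were detected in brain and 5 were brain-low, with a median contrast of -2.38. Over all probes 6.18% were brain-low, and the median contrast of those detected was 0.13. None of the 5 remained brain-low under all 8 alternatives of the processing. Without normalization between arrays muscle was 1.35-fold above brain for pol-miR-144-3p. For pol-miR-144-3p, brain Signal was 102 ± 16.2, against 268 ± 62.4 in liver (not detected), 2219 ± 86.5 in spleen, 305 ± 40.4 in muscle and 303 ± 37.3 in heart, and heart was 2.98-fold above brain. For dre-miR-451, brain Signal was 2979 ± 170, against 6988 ± 490 in liver, 19347 ± 996 in spleen, 6819 ± 714 in muscle and 6476 ± 287 in heart, so that liver, muscle and heart were alike and each 2.17-fold or more above brain. Fish red cells are nucleated, and without normalization between arrays muscle over brain was 0.616 for dre-miR-451, a reversed direction. For dre-miR-155, not detected in brain, it was then at least 0.883, which settles no direction. The part of these blood cell markers in the other differences was not tested.

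miRNAs of liver and of striated muscle had low median contrasts in brain, and most of their probes were also undetected in some other tissues, which the rule for brain-low does not admit beyond 1 tissue. Of 12 probes of miR-122, miR-192 and miR-194, 3 were detected in brain and 5 were brain-low, against 6.18% over all probes. For dre-miR-122, brain Signal was 91.3 ± 10.9, against 39195 ± 1963 in liver, 648 ± 234 in spleen, 140 ± 21.7 in muscle and 1.27 ± 4.11 in heart (not detected). Another miR-122 probe, ccr-miR-122, gave the same order, with 130 ± 5.65 in brain, against 30344 ± 17299 in liver, 845 ± 141 in spleen, 148 ± 14.2 in muscle and 14 ± 8.36 in heart (not detected). For ccr-miR-194, brain Signal was 33.8 ± 8.91 (not detected), against 6305 ± 593 in liver, 206 ± 14.5 in spleen, 158 ± 12.3 in muscle and 13.5 ± 2.63 in heart (not detected), so that muscle was at least 2.71-fold and liver at least 108.4-fold above brain. For ola-miR-192-5p, brain Signal was 53.4 ± 6.65 (not detected), against 5789 ± 3652 in liver, 204 ± 31 in spleen, 211 ± 19.4 in muscle and 16.7 ± 3.62 in heart (not detected), so that spleen was at least 3.50-fold above brain. With a robust SD of the empty spots heart was detected too, and heart over brain was 0.313. The median contrast of the 10 liver probes detected in a tissue was -2.36. All 22 probes of miR-1, miR-133, miR-206 and miR-499 were detected in muscle and 12 in brain, with a median contrast of -2.12 and no probe brain-low. For dre-miR-1, brain Signal was 764 ± 29.6, against 380 ± 98.7 in liver (not detected), 41.5 ± 7.71 in spleen (not detected), 32078 ± 1855 in muscle and 5050 ± 272 in heart, so that brain was above spleen. The brightest muscle miRNA probe in brain was pol-miR-133-5p, the other arm of miR-133, with 24053 ± 1474 in brain, against 44249 ± 3770 in liver, 20156 ± 1126 in spleen, 126306 ± 4414 in muscle and 12079 ± 756 in heart, and it was detected in every tissue. Its Signal in muscle lay above the highest raw spot density of that array (56526, against 55945 on the brain array), and brain over the next tissue, 0.19 here, moved to 0.952 without normalization between arrays, to 1 with quantile normalization and to 0.406 with median scaling, so that the size of this difference depends on the normalization. Of 10 skin probes (miR-203 and miR-205), 3 were detected in brain and 9 in muscle. Signal of dre-miR-203a was 172 ± 13.7 in brain, against 138 ± 52.3 in liver (not detected), 99.3 ± 14.5 in spleen (not detected), 8641 ± 559 in muscle and 28.4 ± 4.14 in heart (not detected). Of 7 probes of the pancreas and pituitary list (miR-216, miR-217 and miR-375), 3 were detected in brain, and Signal of fru-miR-216a was 195 ± 16.6 in brain, against 9222 ± 313 in liver, 2886 ± 153 in spleen, 125 ± 13.5 in muscle and 19.5 ± 4.82 in heart (not detected), so that liver and spleen were far above brain. The part of such markers of other tissues in the brain differences was not tested.

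Several common families had no brain-high or brain-low probe, among them the 12 probes of miR-181, the 15 of miR-30, the 30 of miR-23, miR-24 and miR-27, the 38 of the miR-17 to miR-92 group and the 6 of miR-126, the endothelial miRNA. The median contrast was 0.09 for miR-181, 0.50 for miR-30, 0.18 for the miR-23 group, -0.41 for the miR-17 group and 0.14 for miR-126. miR-18, of the miR-17 group, stood lower, with a median contrast of -1.99. Signal of dre-miR-18a was 118.5 ± 14.3 in brain, against 526 ± 91.6 in liver, 1508 ± 45.6 in spleen, 432 ± 22.5 in muscle and 148 ± 19.4 in heart, which was 1.25-fold above brain, so that brain was lowest but short of the 2-fold limit. Signal of ccr-miR-181a was 4067 ± 143 in brain, against 3413 ± 239 in liver, 5410 ± 104 in spleen, 2744 ± 370 in muscle and 2204 ± 84.5 in heart, and spleen was the highest. Signal of ipu-miR-30c was 7768 ± 251 in brain, against 6689 ± 225 in liver, 4394 ± 204 in spleen, 5897 ± 534 in muscle and 5245 ± 115 in heart, 1.16-fold higher in brain than in liver, though with quantile normalization brain was at 0.622 of heart. Signal of ola-miR-24b-3p was 2603 ± 150 in brain, against 1627 ± 267 in liver, 984 ± 23.4 in spleen, 7059 ± 429 in muscle and 916 ± 42.1 in heart, so that muscle stood above the others, whereas without normalization between arrays brain was at 1.02 of muscle. Signal of dre-miR-19d was 2852 ± 173 in brain, against 3543 ± 1313 in liver, 6325 ± 360 in spleen, 4097 ± 420 in muscle and 2765 ± 181 in heart, and brain and heart differed by less than the spread of the spots. For ccr-miR-126-3p, Signal was 4088 ± 221.8 in brain, against 5953 ± 692 in liver, 3800 ± 257 in spleen, 2438 ± 212 in muscle and 4434 ± 165 in heart, so that brain lay between liver and muscle. Probes of miR-26, miR-16, miR-130, miR-152 and miR-222a met neither rule. Signal of hhi-miR-26 was 13229 ± 316 in brain, against 12977 ± 484 in liver, 9998 ± 187 in spleen, 14407 ± 1823 in muscle and 10563 ± 144 in heart, with muscle highest and brain next. Signal of dre-miR-16b was 6037 ± 255 in brain, against 5104 ± 1322 in liver, 9993 ± 360 in spleen, 4729 ± 255 in muscle and 6180 ± 216 in heart, with spleen highest. Signal of dre-miR-130a was 3136 ± 238 in brain, against 1005 ± 202 in liver, 2387 ± 123 in spleen, 1531 ± 69.4 in muscle and 2030 ± 60.7 in heart, 1.31-fold higher in brain than in spleen, though with quantile normalization brain was at 0.742 of spleen. Brain and spleen were the highest tissues for this miRNA. Signal of ola-miR-152 was 1824 ± 224 in brain, against 1482 ± 510 in liver, 1195 ± 33.7 in spleen, 2887 ± 374 in muscle and 942 ± 40.6 in heart, with muscle highest, but without normalization between arrays brain was highest, 1.2-fold above heart. Signal of dre-miR-222a was 688 ± 29.8 in brain, against 881 ± 270 in liver, 1390 ± 120 in spleen, 1045 ± 112 in muscle and 813 ± 23.9 in heart, with brain lowest by 1.18-fold. Of the 25 probes of fibroblast and smooth muscle miRNAs (miR-140, miR-143, miR-145, miR-199, miR-214 and miR-455), 24 were detected in brain, with a median contrast of -0.88. For ipu-miR-145, of smooth muscle, Signal was 4701 ± 461 in brain, against 7971 ± 3514 in liver, 4511 ± 227 in spleen, 2172 ± 261 in muscle and 6482 ± 164 in heart, so that brain was above muscle and below liver and heart. The Hox-cluster miRNAs miR-10 and miR-196, known from the trunk and hindbrain axis, were detected in brain by 3 of 19 probes, against none in liver, 9 in spleen, 16 in muscle and 3 in heart. Signal of fru-miR-10d, the brightest of them in brain, was 369 ± 33.5 in brain, against 337 ± 53.6 in liver (not detected), 688 ± 46.2 in spleen, 1250 ± 146 in muscle and 151.7 ± 16.1 in heart. For dre-miR-10b, Signal was 77.0 ± 13.8 in brain, against 196 ± 92.3 in liver (not detected), 729 ± 74.8 in spleen, 2447 ± 257 in muscle and 28.8 ± 8.12 in heart (not detected).

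A custom probe for ugauagaacuccgugccacaggc, whose seed is on no other probe, was the 1 brain-low probe among the 48 custom probes. Signal was 234 ± 11.2 in brain, against 2267 ± 277 in liver, 529 ± 27.9 in spleen, 808 ± 60.9 in muscle and 873 ± 69.6 in heart. The lowest other tissue, spleen, was 2.26-fold above brain and liver 9.67-fold.

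**Figure D4:**
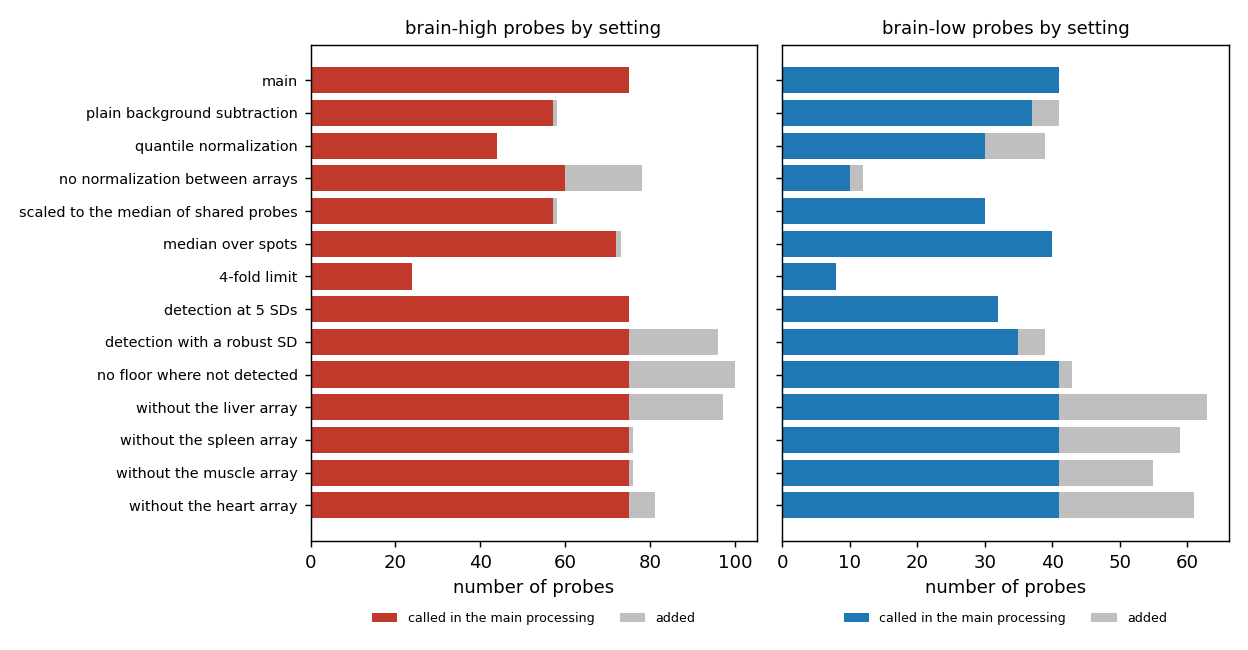
Number of brain-high (left) and brain-low (right) probes under the main processing and 13 alternatives, in colour for probes called under the main processing and in grey for probes added by the alternative. Between 44 and 75 of the 75 brain-high probes were kept with the 2-fold limit, against 10 to 41 of the 41 brain-low probes. Leaving out an array or the floor can only add probes.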

How the data were processed

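For each tissue the authors deposited the scanner output of 1 array, a raw spot intensity (median density over pixels, linear) and its SD, before background subtraction. By the study's methods the arrays were read with a GenePix scanner and Array-Pro, and the authors also deposited a table of processed intensities, used here only as an alternative, since its values did not follow the scanner values of the same names (correlation of log2 0.01 to 0.09 over the 5 arrays, against 0.95 to 0.99 when rows were matched by value). Background was corrected here by normexp (offset 50) with limma 3.58.1 in R 4.3.3, and arrays were normalized by cyclic loess (3 iterations, log2 scale). Local background for detection was the median of the 20 nearest empty spots, and its spread the SD of all 361 empty spots. Arrays, 1 per tissue, allow no test, so no p-value was computed and the number of arrays limits the precision. Steps were run on simulated data with even probe spots and no outlying empty spots, so that run does not cover the uneven spots of the real arrays. Members, lists and limits were chosen with earlier results of these data known. Full values are given for markers, for the brightest brain-high probe of 20 families, for the largest fold of 12 brain-low families, for probes next to a limit, for the brightest probes of lists and for probes in brain alone, and other probes named were chosen after their values were seen.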

Additional observations from a re-analysis of the deposited data

How the results depend on the processing

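With 1 array per tissue, technical spot spread is the sole error measured. No paired analysis was possible because each tissue has 1 sample and no result comes from a test. The 75 brain-high probes became 44 under quantile normalization, all of them among the 75, and 24 with a 4-fold limit. Under other alternatives with all arrays they ranged from 58 to 100, with 96 for a robust SD of the empty spots. The highest count was without a floor for undetected levels, which can only add probes. Asking, after seeing the data, that every brain spot be above every other spot left 66, from the same spots that made the calls. Under all 8 alternatives of background, normalization, spot summary, detection and floor, 37 probes of 17 families remained brain-high, among them miR-9, miR-124, miR-219, miR-128, miR-129, miR-204, miR-34, let-7, miR-99, miR-100 and miR-125. A family is named here when any of its probes remained. No probe of miR-132, miR-137, miR-7, miR-449, miR-103, miR-29 or miR-190 remained, nor did custom probe B. With plain background subtraction the lower bound against the liver limit fell to 1.96 for ola-miR-132 and 1.24 for ola-miR-137. For hhi-miR-449 it fell to 1.34 with arrays scaled to the median of probes detected in all tissues. The probes ola-let-7a-5p, ccr-miR-100 and ipu-miR-99b did not remain, with ratios of 1.31, 1.93 and 1.95 under quantile normalization. The 41 brain-low probes became 12 without normalization between arrays, 10 of them among the 41, and 8 with a 4-fold limit. Leaving out an array gave 76 to 97 brain-high probes, the most without liver. It removes a comparison and asks for detection in fewer tissues, so it can only add probes and does not test the calls. It gave 63 brain-low probes without liver, 59 without spleen, 55 without muscle and 61 without heart. In all 8 alternatives 9 probes of miR-200, miR-141 and miR-184 remained. Among the brain-high and brain-low probes followed through the alternatives, the ratio crossed 1 for dre-miR-451 without normalization (0.616, muscle over brain) and for ola-miR-192-5p with a robust SD of the empty spots (0.313, heart over brain, since heart was then detected). It also did so as a lower bound, which settles no direction, for fru-miR-137 with plain background subtraction (0.9, brain over the liver limit) and for dre-miR-155 (0.883) and dre-miR-31 (0.584) without normalization, as muscle over brain. Probes in neither class crossed 1 as well, among them ipu-miR-30c (0.622) and dre-miR-130a (0.742) under quantile normalization and ola-miR-152 (1.2) without normalization, and the lower bound against the liver limit fell below 1 with plain background subtraction for dre-miR-138 (0.704), ccr-miR-137 (0.56) and ipu-miR-212 (0.881). The causes were not tested. The authors' processed intensities come from the same 5 arrays, so they are another processing and no independent measurement. Their rows were found by matching 3 or more of 5 tissue values for 87 miRNAs, and 53 rows matched on all 5. All 19 brain-high probes present were highest in brain, by 1.51-fold to 876-fold, and 14 of them by 2-fold. Of 8 brain-low probes, 7 were lowest in brain and 6 by 2-fold. Over the alternatives made from the scanner values of all arrays, the ratio of dre-miR-9-5p ranged from 53.7 to 124, and that of dre-miR-219 from 4.86 to 42.4.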

Other observations

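Of 12 probes of the miR-183, miR-96 and miR-182 cluster, known from sensory hair cells and photoreceptors, 9 were detected in brain and 9 in muscle. For hhi-miR-96, Signal was 214 ± 13.4 in brain, against 151.9 ± 132 in liver (not detected), 70.1 ± 8.91 in spleen (not detected), 261 ± 49.5 in muscle and 27.9 ± 5.71 in heart (not detected), and brain and muscle differed by less than the spread of the spots. dre-miR-724 was detected in brain and heart, with 381 ± 54.5 in brain, against 57.6 ± 32.5 in liver (not detected), 69.5 ± 11.6 in spleen (not detected), 64.0 ± 11.7 in muscle (not detected) and 94.0 ± 11.1 in heart, and was 4.05-fold above heart. dre-miR-489 was detected in brain and muscle, with 245 ± 16 in brain, against 56.1 ± 22.3 in liver (not detected), 66.6 ± 7.53 in spleen (not detected), 68.7 ± 8.83 in muscle and 64.9 ± 8.98 in heart (not detected), 3.57-fold above muscle. Against the liver limit, brain was at least 1.04 for dre-miR-724 and at least 0.64 to 0.67 for the probes of miR-489. No 2-fold difference from liver could be seen for them. Of 5 probes of miR-462 and miR-731, a pair known from fish, 3 were detected in brain, and dre-miR-462 was at 3501 ± 327 in brain, against 4254 ± 770 in liver, 12418 ± 733 in spleen, 12338 ± 1841 in muscle and 4457 ± 2400 in heart, with spleen and muscle highest. For hhi-miR-430b, of the family that clears maternal RNA in zebrafish embryos, Signal was 88.0 ± 13.6 in brain, against 43.3 ± 15.4 in liver (not detected), 58.9 ± 9.28 in spleen, 50.6 ± 8.53 in muscle and 58.1 ± 19.1 in heart (not detected), near the limits of detection.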
